A study of Oryctolagus cuniculus with 6 samples.

Results

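Antimicrobial proteins and acute phase proteins are described here through 8 genes whose transcripts were measured in the rabbit trachea: PGLYRP1, LTF, BPI, CAMP, SAA3, ORM1, CHI3L1 and DEFB1. These 8 were chosen with their measured counts in both groups known, so their differences between groups are a description with no test. All 8 had a row under their symbol in the deposited table of 29587 genes, and 7 of them were among the 13724 genes with enough counts to be tested; CAMP was not. The study sequenced polyA RNA of the tracheal lining; the animals were New Zealand rabbits, all 3 months of age. In the high cuff pressure group (3 libraries) a 3.0 mm tracheal tube was placed 13 cm deep and its inflatable cuff was kept at 35 cmH2O for 2 h to injure the mucosa. The control group also had 3 libraries. How the controls were handled and how long after the procedure tissue was taken are not given in the labels, which name no allele or other agent in either group. The labels call the material epithelial cells and primary cells, but the protocol names the mucosa, so leukocytes, glands and vessels may be present. In such bulk samples, fewer cells of a type and less RNA per cell cannot be told apart.

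The 8 proteins defend the airway in different ways and come from different cells. Neutrophils carry PGLYRP1, lactoferrin (LTF), BPI and cathelicidin (CAMP) in their granules, and much of this protein store is transcribed while the cells mature in bone marrow, so that circulating neutrophils hold little messenger RNA for several granule proteins. Gland serous cells also secrete lactoferrin, airway epithelium secretes beta-defensin 1 (DEFB1), and serum amyloid A-3 (SAA3) and orosomucoid 1 (ORM1) belong to the acute phase proteins, which are induced by cytokines such as interleukin 1 and interleukin 6 in liver and, for SAA3, in other tissues.

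Library totals ranged from 10501734 to 14415754 counts, and 3 counts, the floor used for a gene without reads, equalled 0.193 to 0.353 CPM, the counts scaled to a common library size. The scaling used TMM factors, which were 0.810 to 0.917 with high cuff pressure and 1.03 to 1.21 in controls. Epithelial markers were present in every library, with 1708 to 31330 counts of the basal keratin KRT5 and 2460 to 5453 counts of the ciliated cell factor FOXJ1, and the cartilage collagen COL2A1 had 3 to 8. Over all genes, edgeR's quasi-likelihood test with Benjamini-Hochberg adjusted p under 0.05 called 503 genes higher and 222 lower, which is 5.28% of those tested in either direction, 3.67% higher and 1.62% lower. When either control replicate 2 or control replicate 3 was left out, no gene passed (2691 and 2496 genes had an unadjusted p under 0.05). Without high cuff pressure replicate 2, 4 passed. No other single library, when left out, took the calls below 76. The labels do not say that each library came from a separate animal, so p-values are about the spread between the libraries, which may be technical.

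PGLYRP1, a granule protein that binds bacterial peptidoglycan, had 808, 349 and 116 counts in high cuff pressure replicates 1, 2 and 3, and 8, 6 and 6 counts in control replicates 1, 2 and 3. As CPM these were 79.6, 41.1 and 8.79 against 0.684, 0.386 and 0.437. All 3 high cuff pressure libraries lay above all 3 controls. Replicate 1 was 9.06 times replicate 3, the lowest of its group, while the controls differed by 1.77 times at most. The group means were 43.2 ± 35.5 CPM (SD, n = 3) and 0.502 ± 0.159 CPM (SD, n = 3), and the fitted log2 difference was 6.42 ± 0.88 (SE), an 85.5-fold difference. Without high cuff pressure replicate 1 it was 5.63. The gene lies on an unplaced contig from 1103 to 3517.

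CAMP, the precursor of the cathelicidin peptide that disrupts bacterial membranes, was close to the limit of detection. It had 12, 4 and 9 counts in high cuff pressure replicates 1, 2 and 3, and 2, 0 and 0 counts in the controls. The 25 counts of one group and 2 of the other gave a depth-scaled count ratio of 16.1 (95% counting interval 4.01 to 140), which covers counting error only. Leaving out control replicate 2 gave a ratio of 9.98, and leaving out control replicate 3 gave 10.7. In the absence of control replicate 1, no control read remained. With 3 counts over the remaining controls taken as the floor, the ratio was then 7.66. The lower limit of the 95% counting interval, with no control read, was 5.78. CAMP lies on chromosome 9 from 16030275 to 16031921.

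BPI, which binds the lipopolysaccharide of Gram-negative bacteria, had 47, 53 and 25 counts with high cuff pressure and 27, 40 and 28 in controls. The CPM were 4.63, 6.24 and 1.89 against 2.31, 2.57 and 2.04. The groups overlapped: high cuff pressure replicate 3 had the lowest CPM of all 6 libraries, and the other 2 libraries of its group had the highest. The means were 4.25 ± 2.20 CPM (SD, n = 3) and 2.31 ± 0.267 CPM (SD, n = 3), with a fitted log2 difference of 0.87 ± 0.48 (SE). BPI lies on chromosome 4 from 2037651 to 2060936.

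LTF, the iron-binding lactoferrin of neutrophil granules and gland secretions, did not follow PGLYRP1. Its counts were 162, 124 and 225 with high cuff pressure, and 1240, 12 and 147 in control replicates 1, 2 and 3. The CPM were 16.0, 14.6 and 17.0 against 106, 0.772 and 10.7. The 3 high cuff pressure libraries were nearly level, with the highest 1.17 times the lowest, while the controls held both the highest and the lowest library, 137-fold apart. The group means were 15.9 ± 1.23 CPM (SD, n = 3) and 39.2 ± 58.1 CPM (SD, n = 3). The fitted log2 difference was -1.30 ± 1.23 (SE), but its sign rested on control replicate 1: without that library it was 1.47 ± 0.89 (SE). The difference of the mean log2 CPM was 0.64. It gives a single high library less weight but a single low one, here control replicate 2 with 12 counts, more weight. Without control replicate 2 the fitted difference was -1.88 ± 0.77 (SE). LTF lies on chromosome 9 from 14592884 to 14613699.

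Control replicate 1 also stood apart in transcripts of other gland and granule products that were looked up after their values were seen. ZG16B, a lectin of serous secretions, had 9807 counts there, 66 and 127 in the other controls, and 85, 252 and 268 with high cuff pressure. CRISP3, a cysteine-rich protein of exocrine glands and neutrophil granules, had 14505 counts there, 55 and 445 in the other controls, and 29, 539 and 1638 with high cuff pressure. The 8 gland markers with a row other than LTF itself summed to 1159 CPM in control replicate 1, against 381 and 215 CPM in the other controls and 86.4 to 333 CPM with high cuff pressure. Control replicate 1 was the highest library in this sum, as it was for LTF. ZG16B alone made up 838 CPM of the sum there, against 4.25 and 9.26 CPM in the other controls. Among other gland markers, AZGP1 was also highest in control replicate 1 (250 CPM). LYZ was highest in high cuff pressure replicate 1 (193 CPM) and PIP in high cuff pressure replicate 2 (156 CPM). The part of gland content in the LTF values was not tested. LTF reads per 100 ZG16B reads were 191, 49.2 and 84.0 with high cuff pressure and 12.6, 18.2 and 116 in controls, so the 2 transcripts did not keep a constant ratio.

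SAA3, an acute phase protein that associates with high-density lipoprotein, was by FPKM the most abundant of the 8 in all but 1 library. It had 105659, 91758 and 56786 counts with high cuff pressure and 14874, 4183 and 5307 in controls. The CPM were 10415, 10798 and 4302 against 1271, 269 and 387. Every high cuff pressure library exceeded every control library, with replicate 3 the lowest of the one group and control replicate 1 the highest of the other. The means were 8505 ± 3645 CPM (SD, n = 3) and 642 ± 548 CPM (SD, n = 3), with a fitted log2 difference of 3.73 ± 0.72 (SE), which is 13.2-fold. Without control replicate 1 the log2 difference was 4.70. In FPKM, fragments scaled to gene length and library size, SAA3 ranked as transcript 8, 8 and 14 of the table with high cuff pressure and as transcript 26, 112 and 69 in controls. SAA3 lies on an unplaced scaffold from 2135282 to 2139361.

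Serum amyloid A genes resemble each other in sequence, and how reads shared between copies were counted is not given, so the level of SAA3 alone is uncertain. Other rows of this scaffold were looked up after the values of SAA3 were seen. A row described as serum amyloid protein A (2179759 to 2184374) had 277, 309 and 279 counts with high cuff pressure and 80, 21 and 22 in controls, a log2 difference of 3.13 ± 0.64 (SE; edgeR adjusted p = 0.039), with control replicate 1 again the highest control. A row without a symbol that carries the acute phase response annotation (2188564 to 2191252) had 3930, 24899 and 14081 counts with high cuff pressure and 11226, 351 and 467 in controls, a log2 difference of 2.11 ± 1.39 (SE; edgeR adjusted p = 0.34). In both rows control replicate 1 stood above the other controls, as it did for SAA3, and in the second it reached the high cuff pressure range.

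ORM1, a plasma glycoprotein of the acute phase that carries lipophilic ligands, had the widest spread of the 8 within the high cuff pressure group. It had 105125, 28300 and 6447 counts there and 6872, 4026 and 15054 in controls. The CPM were 10363, 3330 and 488 against 587, 259 and 1097. The groups overlapped: high cuff pressure replicate 3 lay below control replicates 1 and 3, while replicate 1 was 21.2 times replicate 3. The means were 4727 ± 5083 CPM (SD, n = 3) and 648 ± 422 CPM (SD, n = 3), and the fitted log2 difference was 2.87 ± 1.02 (SE). Leaving out high cuff pressure replicate 1 gave 1.56, and leaving out control replicate 3 gave 3.48. ORM1 lies on an unplaced scaffold from 13299650 to 13303344; orosomucoid also occurs in near-identical copies, and how such reads were counted is not given.

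The 2 acute phase transcripts therefore did not keep a fixed ratio. SAA3 FPKM divided by ORM1 FPKM was 1.96, 6.33 and 17.2 in high cuff pressure replicates 1, 2 and 3, and 4.22, 2.03 and 0.688 in the controls. In control replicate 3, ORM1 exceeded SAA3. Transcripts that mark hepatocytes, the main source of acute phase proteins in plasma, were at or near 0. ALB had 1, 0 and 0 counts with high cuff pressure and 0, 1 and 1 in controls. APOA1 had 1, 3 and 0 against 0, 0 and 0, and TTR and AHSG had 1 count each over the 6 libraries. These hepatocyte genes were chosen after their values were seen. Which cells supplied the SAA3 and ORM1 transcripts was not tested.

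CHI3L1, a chitinase-like protein without enzyme activity that macrophages, neutrophils and epithelium secrete, had 2411, 2294 and 829 counts with high cuff pressure and 267, 263 and 117 in controls. The CPM were 238, 270 and 62.8 against 22.8, 16.9 and 8.53. The groups did not overlap, and replicate 3 was the lowest library of each group, although a replicate number shared by a treated and a control library is only a name. The means were 190 ± 111 CPM (SD, n = 3) and 16.1 ± 7.18 CPM (SD, n = 3), with a fitted log2 difference of 3.56 ± 0.61 (SE), which is 11.8-fold. Leaving out any single library kept it between 3.23 and 3.98. CHI3L1 lies on chromosome 16 from 68595451 to 68601787.

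DEFB1, a beta-defensin made by surface epithelium at baseline, had 44, 184 and 102 counts with high cuff pressure and 55, 42 and 57 in controls. The CPM were 4.34, 21.7 and 7.73 against 4.70, 2.70 and 4.15. High cuff pressure replicate 2 was the highest library, and replicate 1 of that group lay below control replicate 1, so the groups overlapped. The means were 11.2 ± 9.18 CPM (SD, n = 3) and 3.85 ± 1.03 CPM (SD, n = 3), with a fitted log2 difference of 1.54 ± 0.59 (SE). It was 0.66 ± 0.43 (SE) without high cuff pressure replicate 2 and 1.93 ± 0.49 (SE) without high cuff pressure replicate 1. DEFB1 lies on an unplaced scaffold from 276006 to 310916. Of 14 beta-defensin rows with a DEFB symbol, 10 had no read in any library and DEFB1 was the 1 that could be tested.

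**Figure D1:**
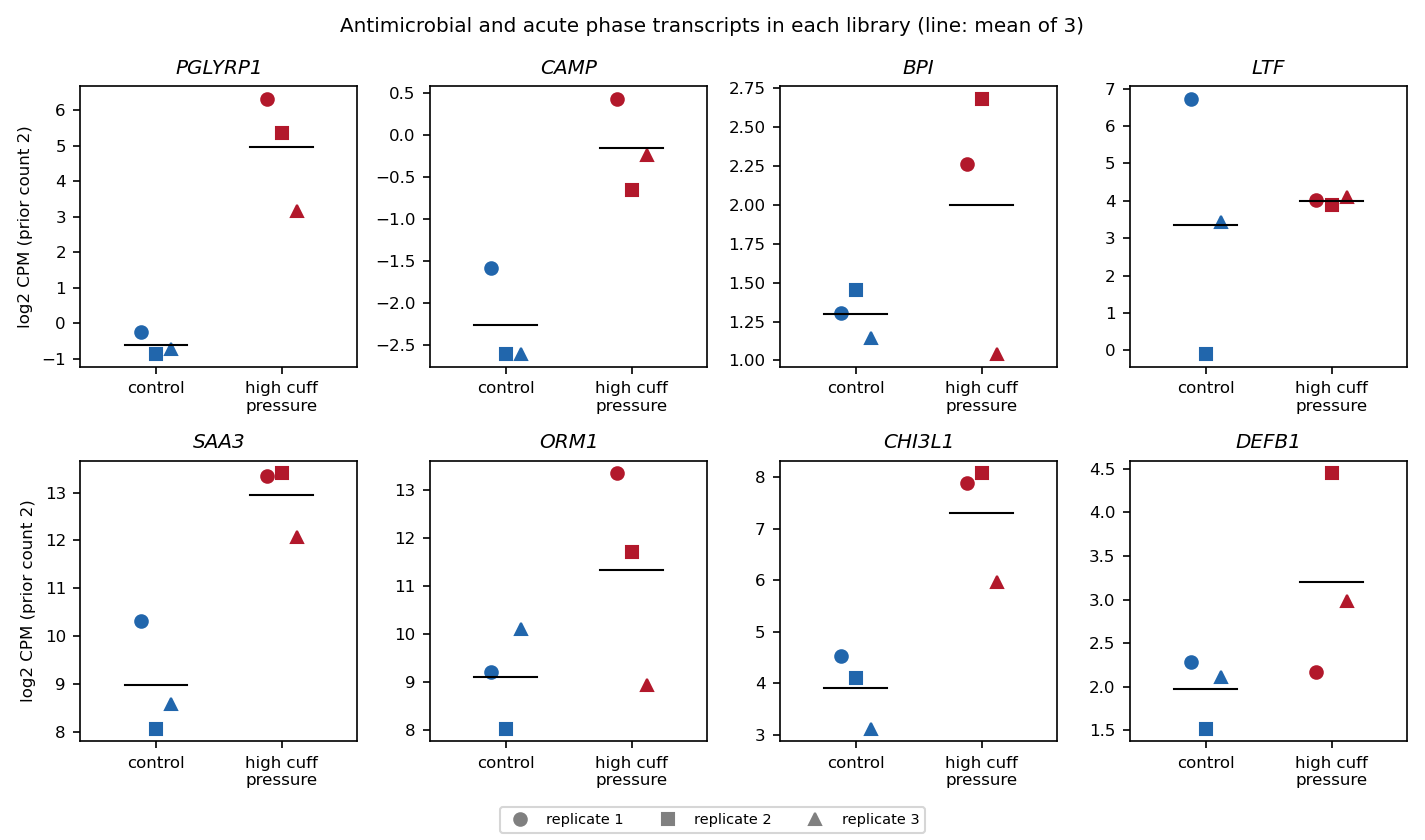
Log2 CPM (prior count 2) of each of the 8 genes in every library; each point is 1 library, its shape gives the replicate number, and the black line is the mean of 3 libraries. PGLYRP1, CAMP, SAA3 and CHI3L1 separate the groups, whereas BPI, LTF, ORM1 and DEFB1 overlap, and the y axes differ between panels.

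Counted over the 7 tested genes, 3 (PGLYRP1, CHI3L1 and SAA3) passed the test as higher and none as lower, where 3.67% and 1.62% of all tested genes did, and the median of their log2 differences was 2.87 against -0.01 over all tested genes. The 3 also had every high cuff pressure library above every control, as did 18.6% of all tested genes, while 18.7% had every such library below. Since the genes were selected on these values, nothing is read from these shares. In the authors' deposited table, 5 of the 8 are marked UP: PGLYRP1, CHI3L1, SAA3, CAMP and ORM1. Of the 19001 genes in that table, 754 are marked UP and 697 DOWN. The lists of calls thus differ in CAMP, which was below the count filter, and ORM1, whose groups overlapped. Without a filter on low counts all 8 were tested and the same 3 were called, so CAMP was not. DESeq2 called ORM1 in addition to the 3, but not CAMP.

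By mean FPKM, the order of levels differed between groups. With high cuff pressure it ran SAA3 (13223 ± 5318 FPKM, SD, n = 3), ORM1 (3822 ± 4233), CHI3L1 (97.6 ± 54.7), PGLYRP1 (56.7 ± 48.0), DEFB1 (31.0 ± 23.3), LTF (4.60 ± 0.637), BPI (1.28 ± 0.601) and CAMP (1.22 ± 0.608). In controls it ran SAA3 (1264 ± 961 FPKM, SD, n = 3), ORM1 (690 ± 478), DEFB1 (14.3 ± 3.11), LTF (13.6 ± 19.6), CHI3L1 (10.9 ± 4.18), BPI (0.931 ± 0.143), PGLYRP1 (0.856 ± 0.187) and CAMP (0.104 ± 0.181). By its mean, PGLYRP1 stood in place 7 in controls and place 4 with high cuff pressure, but neither exact place is certain. Neighbours whose means lie closer than the larger of their SDs cannot be ordered at this number of libraries. With high cuff pressure these are CHI3L1 and PGLYRP1, PGLYRP1 and DEFB1, and BPI and CAMP. In controls they are SAA3 and ORM1, then DEFB1, LTF and CHI3L1, and BPI and PGLYRP1.

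The pattern over the 6 libraries was compared as log2 CPM minus each gene's own mean. CAMP was left out, which leaves 7 genes. The closest pair among these 7 was CHI3L1 and SAA3, with a root mean square difference of 0.665 log2 units over 6 libraries, and the most distant was LTF and PGLYRP1, with 3.20. PGLYRP1, SAA3 and CHI3L1 were above their means in all 3 high cuff pressure libraries and below in all controls. ORM1 was above its mean in high cuff pressure replicates 1 and 2 only, and DEFB1 peaked in replicate 2.

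**Figure D2:**
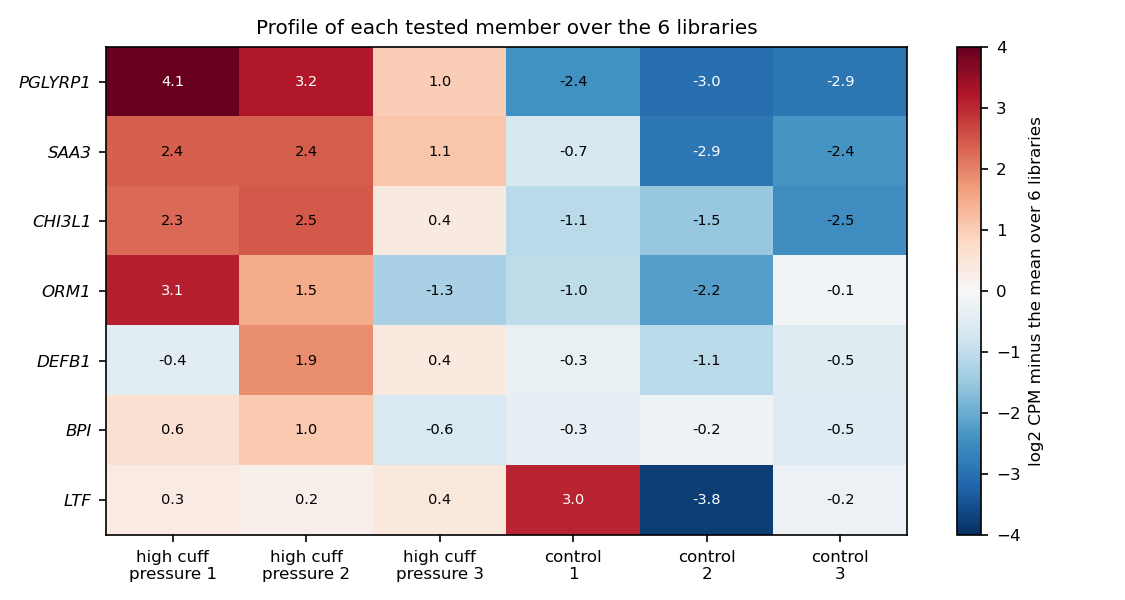
Each cell is the log2 CPM of a gene (row) in a library (column) minus that gene's mean over the 6 libraries, in log2 units; red is above and blue below the mean. PGLYRP1, SAA3 and CHI3L1 are red across the high cuff pressure columns, and LTF is red mainly in control 1 and blue in control 2.

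Among all other tested genes with a symbol, those nearest in pattern to each gene were found by the same measure over 6 libraries. Nearest to PGLYRP1 were SLC11A1, a metal transporter of phagocyte membranes (0.348), the interleukin 8 receptor CXCR1 (0.409) and CCRL2 (0.477). Nearest to CHI3L1 were MYBPH (0.345), the neutrophil chemokine CXCL8 (0.354) and the protease ADAMTS4 (0.429). Nearest to SAA3 were the lectin receptor CLEC4E (0.324), the urokinase receptor PLAUR (0.332) and the protease inhibitor SERPINA3 (0.403). These distances are in log2 units, and the lists share the contrast that separates the groups.

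The same search was made for the tested genes whose groups overlapped. Nearest to LTF were the immediate early genes FOS (0.674) and EGR1 (0.859), then STAC2 (0.895). FOS had 1834 CPM in control replicate 1 against 12.5 and 52.5 CPM in the other controls and 79.2 to 199 CPM with high cuff pressure, so it too was highest in the library where LTF was highest. Nearest to ORM1 were ACOD1, the itaconate-producing enzyme of activated macrophages (0.480), LCN12 (0.516) and the tryptophan-degrading enzyme IDO1 (0.520). IDO1 had 51.4, 18.7 and 1.89 CPM with high cuff pressure and 4.96, 0.579 and 7.73 in controls, and thus shared with ORM1 a low high cuff pressure replicate 3 and a high control replicate 3. Nearest to BPI were C19orf12 (0.171), DERL3 (0.172) and FBXO24 (0.173), and nearest to DEFB1 were MTLN (0.242), CASP9 (0.244) and EXOSC4 (0.267).

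Other antimicrobial and acute phase genes, in 6 lists that leave the 8 out, were then tested. The lists were written with earlier results of these data known, so their shares of calls are a description and nothing is read from them. Of 133 listed genes, 89 had a row and 62 were tested; 13 were called higher, none was called lower (edgeR adjusted p under 0.05; 26 had an unadjusted p under 0.05 in either direction), and the median log2 difference was 0.72. Over all 13724 tested genes, 3.67% were called higher and 1.62% lower, 4015 had an unadjusted p under 0.05 and the median was -0.01, which is the background for each list that follows. None of the 13 calls held after leaving out high cuff pressure replicate 2, control replicate 2 or control replicate 3. Leaving out control replicate 1 kept 3 of them (ARG1, CSF3R and SERPINA3). This holds for every call in the granule, recognition, acute phase and inducer lists.

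Among granule genes, 5 of 9 tested in the specific and gelatinase list and 1 of 2 tested in the azurophil list were called higher and none lower. The gelatinase MMP9 had 223, 62 and 27 counts with high cuff pressure and 0, 2 and 3 in controls (log2 difference 6.31 ± 1.12 SE, edgeR adjusted p = 0.032). Leaving out high cuff pressure replicate 1 gave 5.15, and leaving out control replicate 3 gave 6.98. The arginine-degrading enzyme ARG1 had 124, 162 and 113 against 6, 1 and 0 counts (6.15 ± 0.87 SE, edgeR adjusted p = 0.018), and 8.23 without control replicate 1. The formyl peptide receptor FPR1 had 187, 211 and 56 against 6, 4 and 1 counts (5.80 ± 0.86 SE, edgeR adjusted p = 0.020), and 6.46 without control replicate 1. Chitotriosidase CHIT1, which lies beside CHI3L1 on chromosome 16 (68559446 to 68569514), rose by 2.69 ± 0.56 log2 units (SE; edgeR adjusted p = 0.041), and by 3.28 without control replicate 3. PTX3, a pattern-binding pentraxin, rose by 2.90 ± 0.67 (SE; edgeR adjusted p = 0.049), and by 2.04 without high cuff pressure replicate 1. The azurophil list call was SERPINB10, a serine protease inhibitor, with 3.15 ± 0.60 (SE; edgeR adjusted p = 0.034) and 2.54 without high cuff pressure replicate 3. SERPINB10 had 17.5, 35.9 and 68.7 CPM in high cuff pressure replicates 1, 2 and 3, so unlike PGLYRP1 and MMP9 it was highest in replicate 3. Whether its transcripts came from cells with granules was not tested. Of 12 genes in the azurophil list, 4 had a row. The 2 classical granule enzymes among them were at or near 0: MPO had 1 count over all 6 libraries and CTSG had none. ELANE, PRTN3 and AZU1 had no row under these symbols, so their levels are not known. LYZ, lysozyme of granules, macrophages and glands, had 1961, 130 and 63 counts with high cuff pressure and 475, 2844 and 654 in controls (-0.35 ± 1.19 SE, edgeR adjusted p = 0.87). Its value rested on single libraries: leaving out high cuff pressure replicate 1 gave -3.19 (edgeR adjusted p = 0.045, called lower), and leaving out control replicate 2 gave 0.69. Of the rabbit alpha-defensin and related rows looked up after the values were seen, NP-3a, NP-4 and RK-1 had no read in any library.

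Among airway secretory proteins, 15 genes were tested and none was called in either direction; 3 had an unadjusted p under 0.05, and the list median was -0.78. BPIFA1, a secreted protein of the BPI fold family, had 17110, 166328 and 248014 counts with high cuff pressure and 238406, 194012 and 46506 in controls (0.14 ± 0.92 SE, edgeR adjusted p = 0.94). BPIFB1, a larger relative, had a log2 difference of -0.82 ± 0.88 (SE, edgeR adjusted p = 0.56), of 0.37 without control replicate 1 and of -1.96 without high cuff pressure replicate 3. The immunoglobulin transporter PIGR had -0.81 ± 0.46 (SE, edgeR adjusted p = 0.28). The groups of BPIFA1 overlapped, with 1687, 19574 and 18790 CPM with high cuff pressure and 20374, 12484 and 3390 CPM in controls. Its log2 difference was 0.75 when control replicate 1 was dropped and turned negative without high cuff pressure replicate 2 (-0.23) or 3 (-0.18), without control replicate 3 (-0.30) and with library totals only (-0.22).

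The recognition and chitinase list had 4 of 15 tested genes called higher and none lower. Besides CHIT1 these were the lipopolysaccharide co-receptor CD14 (log2 difference 2.27 ± 0.42 SE, edgeR adjusted p = 0.034), the lipopolysaccharide receptor TLR4 (1.82 ± 0.40 SE, edgeR adjusted p = 0.047) and the scavenger receptor MARCO (3.85 ± 0.71 SE, edgeR adjusted p = 0.034, and 4.61 without control replicate 1). In the acute phase list, 2 of 6 tested genes were called higher: PTX3 and SERPINA3. SERPINA3, antichymotrypsin, had 433, 256 and 372 counts against 64, 18 and 30 (3.53 ± 0.55 SE, edgeR adjusted p = 0.023), and 4.34 without control replicate 1. Plasma proteins of hepatocytes in that list were mostly below the count filter, among them CRP with 4 counts and FGB with 1 in all. Others were looked up after their values were seen. LBP, also below the filter, had 6, 23 and 13 counts with high cuff pressure and 0, 1 and 0 in controls. A2M, below it too, had 5, 6 and 3 against 0, 0 and 0. CP was tested and not called, with 241 to 1088 CPM with high cuff pressure and 367 to 1017 CPM in controls. ITIH3 and ITIH4 were also tested and not called. Among inducers and regulators, 3 of 18 tested genes were called higher: IL1B (6.64 ± 1.14 SE, edgeR adjusted p = 0.030), the granulocyte growth factor CSF3 (6.14 ± 0.95 SE, edgeR adjusted p = 0.022) and its receptor CSF3R (7.28 ± 0.84 SE, edgeR adjusted p = 0.016). Leaving out high cuff pressure replicate 1 made these 5.68, 4.94 and 6.33. Leaving out control replicate 1 gave 7.94 for IL1B and 7.01 for CSF3. IL6, a main inducer of acute phase transcription, had 174, 58 and 27 counts against 14, 2 and 0 and was not called (4.35 ± 1.20 SE, edgeR adjusted p = 0.070).

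**Figure D3:**
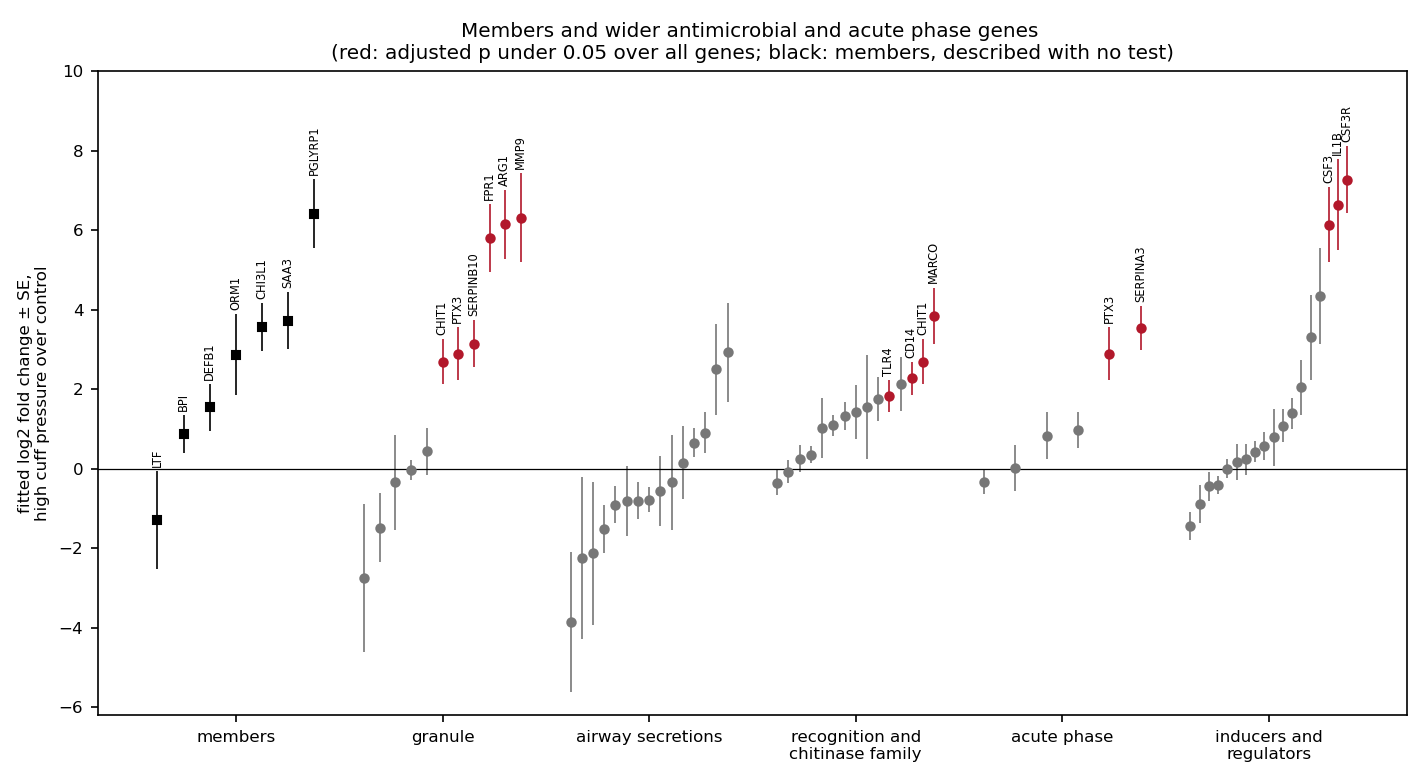
Fitted log2 fold change of high cuff pressure over control with its SE for the 7 tested genes (black squares) and the tested genes of the wider lists (circles, red where the adjusted p over all genes was under 0.05); some genes stand in more than 1 list. The 13 red genes all lie above 0, and no gene of the airway secretions list is red.

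Markers of the cell types that could supply these transcripts moved with some of the 8 genes. Of the 13 called genes of the wider lists, 4 also stand in the neutrophil or the monocyte and macrophage marker list. These are CSF3R, FPR1, CD14 and MARCO, so the marker results partly count the same genes again. Of 17 neutrophil markers, 14 had a row and 13 were tested; 8 were called higher and 1, MNDA, lower, and their sum was 1564 to 6949 CPM with high cuff pressure and 160 to 631 CPM in controls. S100A9 was a large part of it in the high cuff pressure libraries and in control replicate 3. Without S100A9 the sums were 2655, 1443 and 718 CPM with high cuff pressure and 159, 157 and 230 CPM in controls. High cuff pressure replicate 1 was highest and replicate 3 lowest of its group in both sums, and the same order held for PGLYRP1 and ORM1. PGLYRP1 reads per 100 reads of the neutrophil receptor CSF3R, a ratio chosen after the values were seen, were 33.8, 46.0 and 25.2 with high cuff pressure and 61.5, 50.0 and 100 in controls. Relative to the whole neutrophil marker sum, S100A9 included, the order was the opposite. PGLYRP1 CPM per 100 CPM of that sum were 1.15, 1.11 and 0.562 with high cuff pressure and 0.308, 0.241 and 0.0694 in controls. The answer thus depended on the marker chosen. The control ratios to CSF3R rest on 6 to 8 PGLYRP1 reads and 6 to 13 CSF3R reads a library. Of 9 granulocyte precursor markers, 5 had a row and 1 was tested and not called; MPO and CTSG were at 1 and 0 counts. The part of neutrophil content in the values of PGLYRP1, CHI3L1, SAA3 and ORM1 was not tested.

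All 14 monocyte and macrophage markers were tested; 5 were called higher and none lower, with sums of 277 to 454 CPM with high cuff pressure and 137 to 269 CPM in controls. Of 16 gland markers, which include LTF, 9 had a row and 6 were tested; none was called higher and 1 lower, and the sums were 103 to 348 CPM against 225 to 1265 CPM. Of 13 club and goblet cell markers, 9 had a row and were tested; 1 was called higher, with sums of 8591 to 29284 against 12091 to 40929 CPM. Of 13 multiciliated markers 11 were tested and none was called, with sums of 1028 to 2722 against 3063 to 4236 CPM. All 11 had a negative log2 difference, as did 6925 of all 13724 tested genes. Markers of 1 cell type can move together over the same libraries, so the 11 signs are not separate observations. The basal and squamous list had 7 of 12 genes tested and 3 called higher, with sums of 1655 to 5670 against 820 to 1711 CPM. Of 13 blood, platelet and liver markers 4 were tested and none called, with sums of 41.9 to 346 against 102 to 328 CPM, and of 9 cartilage markers 2 were tested and none called. The part of these cell types in the values of BPI, DEFB1, CHI3L1, LTF and SAA3 was not tested.

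**Figure D4:**
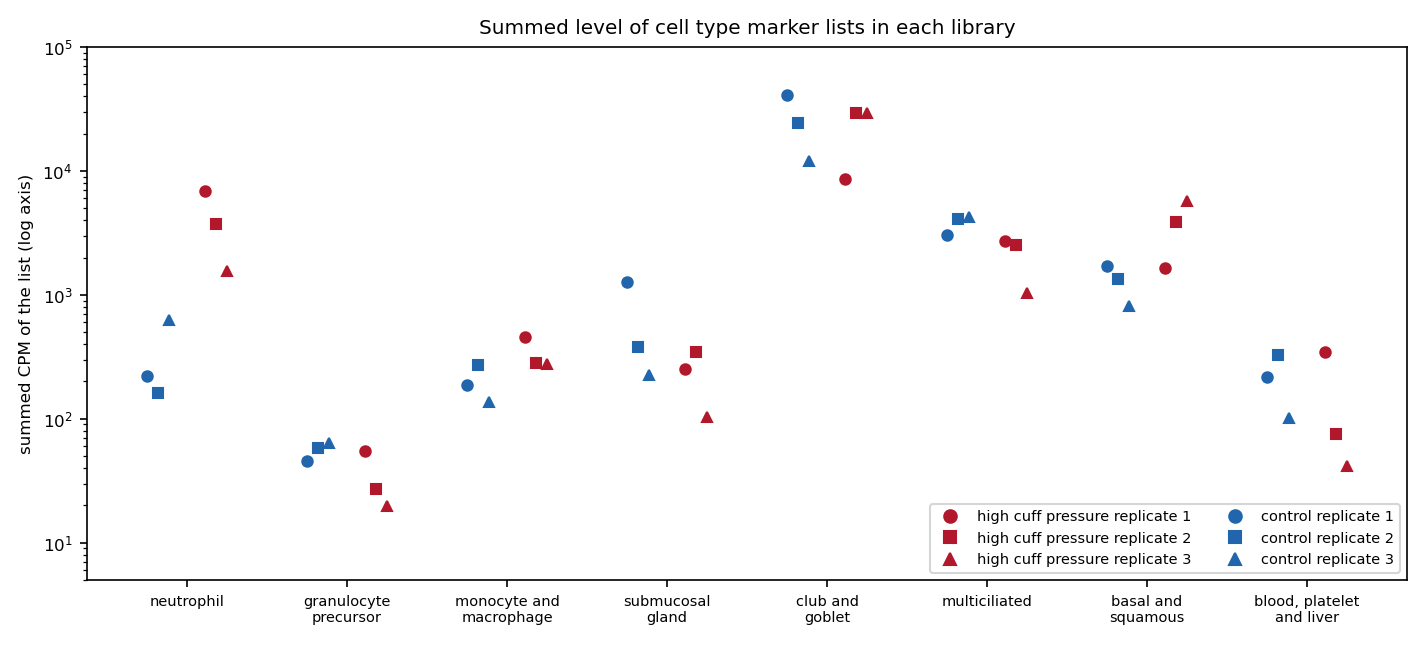
Summed CPM (log axis) of each cell type marker list in every library; blue points are controls, red points are high cuff pressure libraries, and the shape gives the replicate number. The neutrophil sum of all 3 high cuff pressure libraries, 1564 to 6949 CPM, lies above the controls, 160 to 631 CPM. The gland sum is highest in control replicate 1, 1265 CPM, of which ZG16B made up 838 CPM.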

How the data were processed

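The 8 genes, the gene lists and the tests were chosen with earlier results of these data known. The deposited gene table gives the authors' raw read counts and, per the file headers, FPKM by the authors; a second deposited table gives the authors' UP and DOWN calls. Tools listed in the submitters' processing notes are the aligner HISAT2 2.0.4, the assembler StringTie 1.3.3b and edgeR. The sources used here do not give the genome build, the strand setting or how reads were counted. Where strand is not used, reads of overlapping antisense genes cannot be told apart. Positions and names come from the deposited table; the RefSeq gene table matched none of its identifiers.

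Groups and replicate numbers were read from the library names in the labels, which put all 6 libraries in 1 batch; control replicate 3 has the title S4 and no sample the title S3. Libraries of a group differed by more than counting noise, with a chi-square of 56.1 to 137 per degree of freedom.

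Counts were filtered (filterByExpr), scaled (TMM) and compared with edgeR 4.0.16 in R 4.3.3 (robust glmQLFit, glmQLFTest, Benjamini-Hochberg over 13724 genes, threshold 0.05); SE is the log2 fold change over the square root of F. Log2 CPM use a prior count of 2. On simulated data for this comparison (13724 genes) the test found 3 of 50 genes changed 2-fold, 35 of 50 changed 4-fold, 47 of 50 changed 8-fold and 48 of 50 changed 16-fold.

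Alternatives were RLE factors, library totals only, a filter of at least 1 CPM in 3 libraries, no filter, DESeq2 1.42.0, the replicate number as a block, leaving out each library, and, for the 8 genes, log2(FPKM + 1) and log2(FPKM + 0.1). Named are the 8 genes; up to 4 called genes with the smallest p per wider list and direction; MPO, LYZ, BPIFA1, BPIFB1, MMP9, PIGR and CSF3R (ELANE, LCN2, SLPI, PI3, HP and SAA1 were not analysed here); the 3 nearest patterns per tested gene; and genes said to be chosen after their values were seen, which also holds for IL6, KRT5, FOXJ1, COL2A1, MNDA, CTSG, CRP, FGB and the hepatocyte genes. The IL6 row was found by its description. The deposited enrichment tables were not used.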

Additional observations from a re-analysis of the deposited data

How the results depend on the processing

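Of all genes, 503 were called higher and 222 lower. With library totals only, which moved the median log2 difference of all genes by -0.39, 389 were higher and 1241 lower, so that 23.9% of calls were higher in place of 69.4%; 2 genes of the wider lists were then called lower, in place of none, and without a filter 1 was. The differences of the 7 tested genes kept their signs under that scaling. DESeq2 called 1394 higher and 1163 lower, and 23 and 2 of the wider lists; it called ORM1 as well. RLE factors and the stricter filter stayed within 1.5 times of all 4 counts.

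Leaving out 1 library gave 0 to 1362 genes higher and 0 to 1261 lower, and, in the wider lists, 0 to 18 higher and 0 to 3 lower. The 0 calls without control replicate 2 or 3 leave 26 and 27 genes of the wider lists with an unadjusted p under 0.05, and those without high cuff pressure replicate 2 leave 26. Of PGLYRP1, CHI3L1 and SAA3, none passed without those libraries, and only SAA3 without control replicate 1. Without high cuff pressure replicate 1, 4 of the 7 tested genes passed, PGLYRP1, CHI3L1 and SAA3 among them. The cause was not tested.

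With the replicate block, 198 genes were higher and 46 lower, with 10 and 0 of the wider lists, and the LTF difference was 0.58. Same-numbered libraries deviated from their group means with correlations of -0.277, -0.201 and -0.234, no library correlated best with its own number, and the numbers are only names. On log2(FPKM + 1), where the mean of logs is compared, the difference was 4.50 for PGLYRP1, 2.90 for CHI3L1, 1.82 for ORM1, 0.83 for DEFB1, 0.20 for BPI and -0.19 for LTF, each over 1.5 times from the count fit; LTF was 0.22 on log2(FPKM + 0.1). CAMP ranged from 0.98 on log2(FPKM + 1) to 3.90 in DESeq2. Depth limits CAMP most, with 0 to 12 counts a library.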

Other observations

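Values that stand outside the comparison are given without explanation. Chosen after their values were seen, the intelectins ITLN1 and ITLN2, lectins that bind microbial glycans, peaked together in another control library than LTF. ITLN1 had 15065 counts in control replicate 3, against 121 and 26 in the other controls and 1655, 577 and 28 with high cuff pressure. ITLN2 had 3675 counts there, against 56 and 6 in the other controls and 391, 189 and 26 with high cuff pressure. The same library had the highest control count of ORM1. PIP, a secreted protein of serous gland cells, was highest in high cuff pressure replicate 2, with 1322 counts against 33 to 212 in the other 5 libraries, where DEFB1 was also highest.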
